A study of Saccharomyces cerevisiae with 3 samples.

Results

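This account is about 10 genes of sulfur metabolism in budding yeast, taken by systematic name from the 6212 genes listed on the arrays. They are MET3, MET14, MET16 and MET10 of sulfate assimilation, MET17, which incorporates sulfide, MET13 and MET6 of methionine synthesis, SAM2 of S-adenosylmethionine synthesis, and CYS3 and IRC7 of cysteine metabolism. The genes were picked by name with earlier results of the same mutant and wild type comparison known, so their ratios are given as a description and were not tested as a set. All 10 had a ratio on at least 1 array, 7 had one in both replicates, and these 7 were measured on all 3 arrays.

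The mutant carried vhs3::URA3 and tetO:HAL3, that is, VHS3 replaced by the URA3 marker and HAL3 under a tetO promoter that doxycycline switches off. Wild type was the JA100 strain without these changes, and both strains had the JA100 genetic background. Both were cultured in synthetic complete medium at 28 °C for 15 h with doxycycline at 100 µg/ml, so the drug was present in mutant and wild type alike. The 3 two-colour arrays stand for 2 biological replicates, replicate 1 on a dye-swap pair and replicate 2 on 1 array with the mutant in Cy5. Every value below is the log2 of mutant over wild type after the array's median was set to 0, so that −1 stands for a transcript 2-fold lower in the mutant and 0 for a gene at the array's median. Wild type was measured only as the other colour of the same array, and levels of different genes were not compared.

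Yeast takes up sulfate, activates it with ATP, reduces it to sulfite and then to sulfide, and joins the sulfide to O-acetylhomoserine to make homocysteine. Homocysteine is methylated to methionine with a methyl group from folate, methionine becomes S-adenosylmethionine, the cell's main methyl donor, and transsulfuration links homocysteine to cysteine in both directions. Many of these genes are induced by the activator Met4, which is held to DNA by Cbf1, Met31 and Met32 and is restrained by the ubiquitin ligase subunit Met30 when sulfur amino acids are plentiful. Cysteine is also a substrate of coenzyme A synthesis. Hal3 and Vhs3, together with Cab3, form the enzyme that decarboxylates phosphopantothenoylcysteine in that pathway.

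The depth of the comparison was limited by the number of arrays. They held ratios for 4894, 4822 and 4728 genes (replicate 1 with the mutant in Cy5, its dye swap, and replicate 2), and their log2 ratios had an SD of 0.650, 0.699 and 0.353 in that order. VHS3 was at −2.06 and −2.50 on the pair of replicate 1 and at 0.09 on the array marked replicate 2, which goes against the genotype on that array's label. HAL3 was at −1.33, −1.29 and −0.14 in the same order, and the marker gene URA3 at −1.40, −0.82 and −0.33. Because of VHS3 the third array is called the array marked replicate 2 throughout, and each gene's ratio on it is given separately. That array did share some large ratios with replicate 1. Of the 4598 genes with both replicates, 13 (0.283%) were past the 2-fold line on the upper side in each. On the lower side 6 (0.13%) were. Whether the label of that array is right was not tested. Which colour is the numerator is not stated. The direction used here rests on the labelled dyes and on VHS3 and HAL3 being lower in replicate 1. In that direction URA3, the marker that replaced VHS3 in the mutant, was below 0 on all 3 arrays, which is not the side that an added marker gene would give. The titles of both arrays with the mutant in Cy5 name wild type before the mutant, and the title of the dye swap names the mutant first. All 3 titles thus name the Cy3 sample first. The deposited dye swap correlated positively with its partner (r = 0.508), so title order cannot be the order of the ratio on every array. Because of URA3, the direction is not settled by every marker. With the sign turned, VHS3 and HAL3 would be higher in replicate 1 in the mutant that lacks VHS3 and has HAL3 switched off. Every "lower" below would then read "higher", with MET13 and MET6 higher and IRC7 lower in the mutant in replicate 1 by the same folds. RNA came from whole cultures, so fewer cells with a transcript and less of it per cell cannot be told apart.

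The largest ratios among the 10 genes lay at the folate-dependent synthesis of methionine and at IRC7, and they were seen in replicate 1. On the dye-swap pair MET13 and MET6 were at least 2-fold lower in the mutant on both arrays and IRC7 at least 2-fold higher, while the genes of sulfate activation stayed within 0.28 of 0. On the array marked replicate 2 none of the 7 measured genes reached a 2-fold difference in either direction, against 2.73% of all genes there, and their ratios ran from −0.22 to 0.56. In the limma fit over all genes 0 of 4598 passed a Benjamini-Hochberg adjusted p of 0.05, either lower (0% called) or higher (0% called), so none of the 7 sulfur genes tested did. MET14, MET16 and MET10 had 1 replicate and were not tested. At an unadjusted p under 0.05 the same fit had 158 genes lower (3.44%) and 64 higher (1.39%), and 0 of the 7 were among them.

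**Figure D1:**
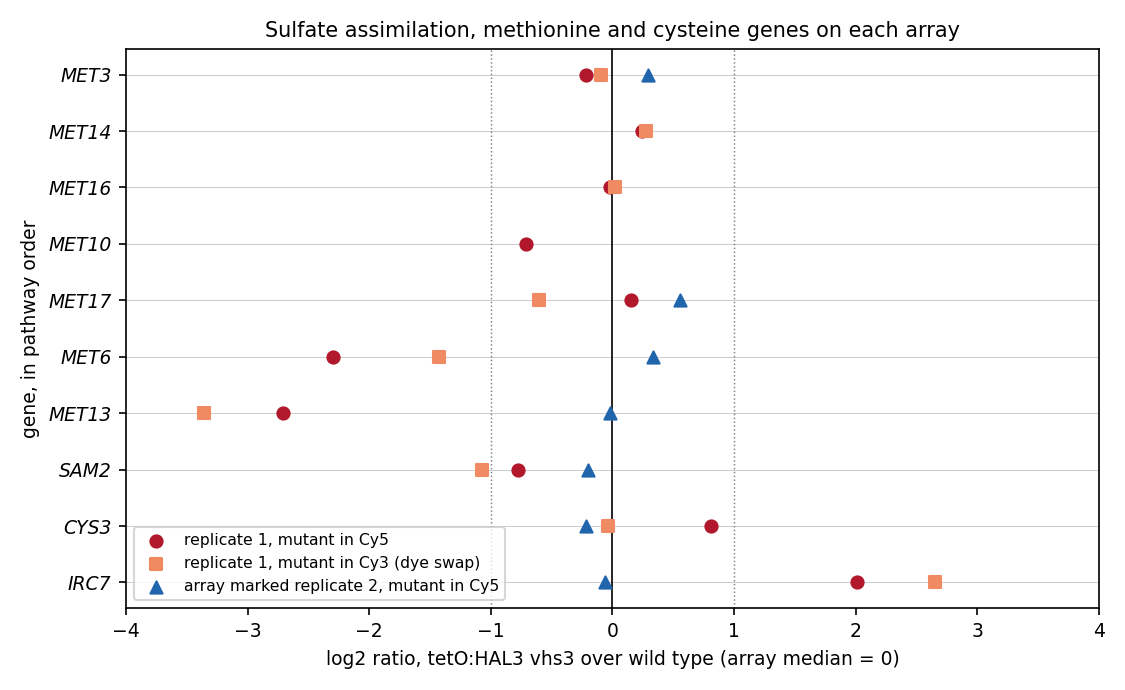
Log2 ratio of mutant over wild type for the 10 genes in pathway order, with 1 point per array (circles and squares for the dye-swap pair of replicate 1, triangles for the array marked replicate 2). Dotted lines mark a 2-fold difference. MET13 and MET6 lie left of the lower line on both arrays of replicate 1 and IRC7 right of the upper one, while all triangles lie between −0.22 and 0.56.

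MET13 (YGL125W, chromosome VII) had the lowest ratio of the 10 genes. It encodes the main methylenetetrahydrofolate reductase, which makes the methyl folate that methionine synthase uses. Its log2 ratio was −2.71 on the replicate 1 array with the mutant in Cy5, −3.36 on the dye swap and −0.02 on the array marked replicate 2. Both arrays of replicate 1 were low and the other array was at its median, 0.02 being the value before centring. In replicate 1 the transcript was 8.20-fold lower in the mutant, at rank 15 from the lowest of 4894 genes with the mutant in Cy5 and at rank 7 of 4822 on the dye swap. The mean over replicates was −1.53 ± 2.13 (SD, n = 2), a spread larger than the mean. Its neighbour SCS3 was at 0.20, −1.0 and 0.26 on the same arrays. With the mutant in Cy5 SCS3 thus lay on the other side of 0 from MET13. On the dye swap it lay on the same side, at rank 244 from the lowest. The other neighbour, MON1, was blank on every array. Both were looked up after the value of MET13 was seen.

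MET6 (YER091C, chromosome V) encodes the cobalamin-independent methionine synthase that takes the methyl group onto homocysteine. Its values were −2.30 with the mutant in Cy5, −1.43 on the dye swap and 0.33 on the array marked replicate 2. The pair was low on both arrays and the third array lay on the other side of 0. In replicate 1 the mutant was 3.63-fold lower, at ranks 25 and 102 from the lowest. On the array marked replicate 2 it was 1.25-fold higher, at rank 323 from the highest of 4728. The mean was −0.77 ± 1.55 (SD, n = 2). The neighbours TRP2 and IES5, also looked up afterwards, were at −0.45 and −0.12 with the mutant in Cy5 and at −0.11 and 1.05 on the dye swap.

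SAM2 (YDR502C, chromosome IV), an S-adenosylmethionine synthetase, acts on the product of MET6. Its log2 ratio was −0.78, −1.07 and −0.20 in the order of the arrays above. All 3 values were below 0, and SAM2 and MET13 were the 2 of 7 genes below 0 on every array, against 15.9% of all genes measured on all 3. For MET13 that count depended on centring, since its ratio on the array marked replicate 2 was above 0 as deposited. The mutant was 1.90-fold lower in replicate 1 and 1.15-fold on the array marked replicate 2, with a mean of −0.56 ± 0.51 (SD, n = 2). SAM1, a second S-adenosylmethionine synthetase and a close relative in sequence, was at 0.46, −0.70 and −0.12. A spotted probe of either gene may bind transcripts of both, which was not tested.

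MET3, MET14 and MET16, which activate sulfate and reduce it to sulfite, had ratios near 0 on both arrays of replicate 1. MET3 (YJR010W), ATP sulfurylase, which opens the pathway, was at −0.22, −0.09 and 0.29. MET14 (YKL001C), the kinase that adds a second phosphate to the activated sulfate, was at 0.24 and 0.28 in replicate 1. MET16 (YPR167C), which reduces that product to sulfite, was at −0.02 and 0.02. The gaps between the dye orientations (mutant in Cy5 minus mutant in Cy3) were −0.12, −0.04 and −0.03, smaller in size than the median gap of 0.47 between the dye-swap arrays over 4546 genes. MET14 and MET16 were blank on the array marked replicate 2. MET10 (YFR030W), a subunit of sulfite reductase, had a single ratio of −0.71 on the replicate 1 array with the mutant in Cy5, which no other array could check.

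MET17 (YLR303W), the O-acetylhomoserine sulfhydrylase that makes homocysteine from sulfide, lay on opposite sides of 0 in the dye orientations. It was at 0.15 with the mutant in Cy5 and at −0.60 on the dye swap, a gap of 0.75 that was larger than that of 74.1% of genes. On the array marked replicate 2 it was at 0.56, rank 49 from the highest, the highest position of the 7 genes there. Its fold of mutant over wild type was 0.854 in replicate 1 and 1.48 on the array marked replicate 2, and the mean was 0.17 ± 0.56 (SD, n = 2). MET3, MET17 and MET6 were thus below 0 in replicate 1 and above 0 on the array marked replicate 2, as were 23.5% of all genes. None of the 7 genes was above 0 in both replicates, against 26.6% of all genes.

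CYS3 and IRC7 encode enzymes that cleave carbon to sulfur bonds in cysteine metabolism. CYS3 (YAL012W, chromosome I), cystathionine gamma-lyase, makes cysteine in the last step of transsulfuration. It was at 0.81 with the mutant in Cy5, −0.04 on the dye swap and −0.22 on the array marked replicate 2, so the arrays did not share a side of 0. Its dye gap of 0.85 was larger than that of 81.2% of genes, and its mean was 0.08 ± 0.43 (SD, n = 2). IRC7 (YFR055W, chromosome VI), a cysteine desulfhydrase related to cystathionine beta-lyases and known in brewing and wine yeasts for the release of volatile thiols, was at 2.01, 2.65 and −0.06. Both arrays of replicate 1 were high, at ranks 16 and 14 from the highest, and the array marked replicate 2 was near its median. In replicate 1 IRC7 was 5.03-fold higher in the mutant, and the mean over replicates was 1.14 ± 1.69 (SD, n = 2). Its neighbour YFR054C, looked up afterwards, was at −0.51 with the mutant in Cy5 and at −1.34 on the array marked replicate 2.

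Of the 9 genes measured on both arrays of replicate 1, MET6 and MET13 (2 of 9) were at least 2-fold lower in the mutant on both, against 2.62% of 4546 genes. IRC7 (1 of 9) was at least 2-fold higher on both, against 1.23%. Another 3 of 9, MET16, MET17 and CYS3, had opposite signs on the pair, against 43.6% of genes. For MET16 this came from centring, its ratios as deposited being 0.01 and 0.02. The genes were picked on this contrast, so the background shares are printed for scale only. The median of the 7 genes with a value in both replicates was −0.23 in replicate 1 and −0.02 on the array marked replicate 2, beside 0.02 and 0.00 over all 4598 genes, while their values in replicate 1 ran from MET13 at −3.04 to IRC7 at 2.33.

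**Figure D2:**
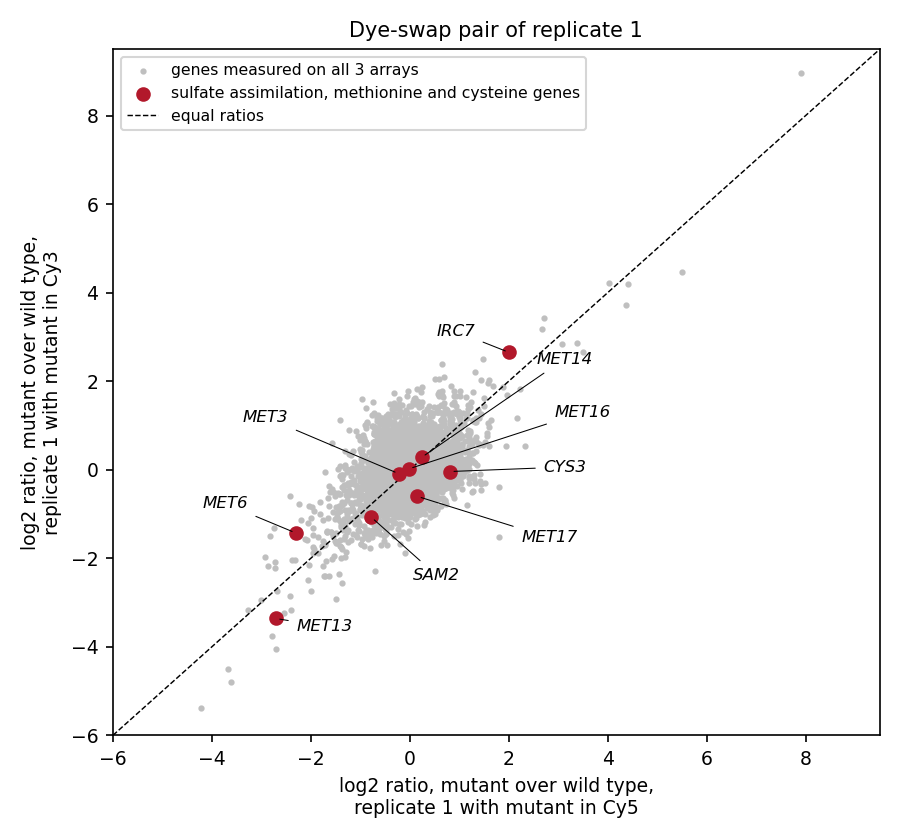
Log2 ratio of mutant over wild type on both arrays of replicate 1, with the mutant in Cy5 on the horizontal axis and in Cy3 on the vertical axis. Grey points are the 4258 genes measured on all 3 arrays, red points are the 9 sulfur genes measured on the pair, and the dashed line marks equal ratios. MET13 and MET6 lie at the lower left and IRC7 at the upper right, and CYS3 and MET17 lie off the line.

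The gap between the dye orientations, mutant in Cy5 minus mutant in Cy3, was −0.87 for MET6, 0.65 for MET13 and −0.63 for IRC7, each smaller in size than the ratios themselves. These gaps were larger than those of 81.9%, 65.7% and 64.4% of the 4546 genes. MET13 minus MET6 was −0.42 with the mutant in Cy5 and −1.93 on the dye swap, so their order was the same on both arrays although its size was not. The 10 genes lie on 9 chromosomes, and none of them on chromosome IX, whose median ratio was −0.80, −0.62 and −0.05 on the 3 arrays. The medians of their own chromosomes ran from −0.10 to 0.05 with the mutant in Cy5, from −0.12 to 0.16 on the dye swap and from −0.04 to 0.07 on the array marked replicate 2.

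**Figure D3:**
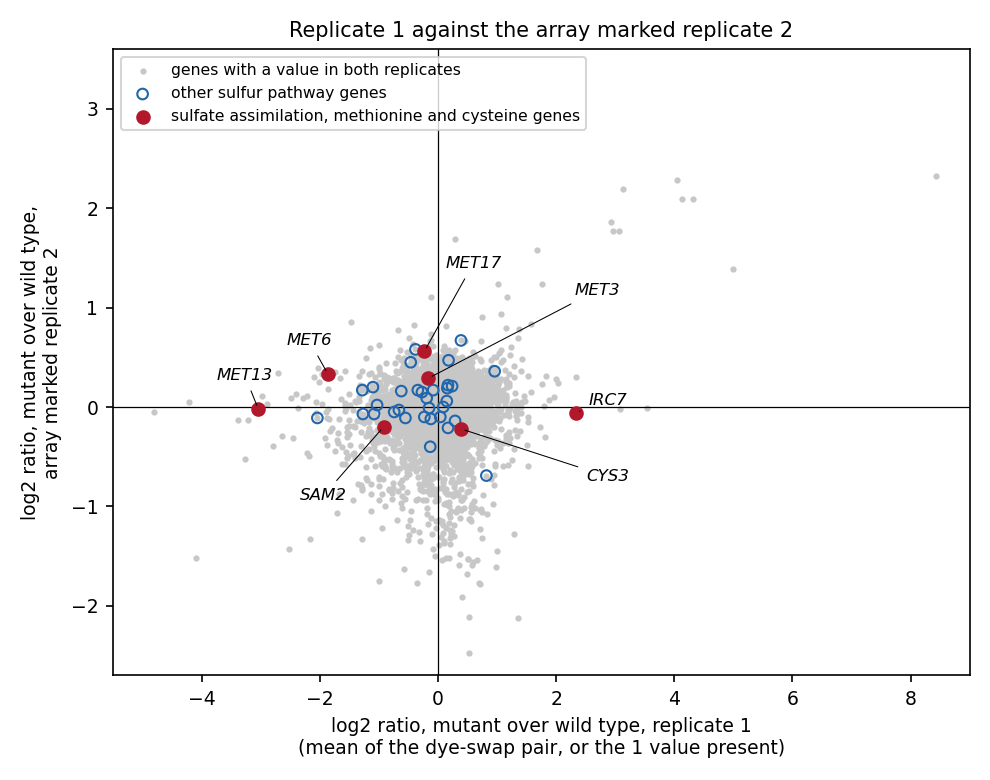
Log2 ratio of mutant over wild type in replicate 1 (horizontal axis, mean of the dye-swap pair or the 1 value present) and on the array marked replicate 2 (vertical axis). Grey points are the 4598 genes with a value in both, open circles the other genes of the sulfur pathway and red points the 7 sulfur genes with both values. MET13 at −3.04 and IRC7 at 2.33 stand apart along the horizontal axis only, with −0.02 and −0.06 on the vertical one.

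A further 36 genes of sulfur uptake, assimilation, methionine and cysteine metabolism, glutathione synthesis and regulation were listed by their textbook role in the pathway, with earlier results of these data known. Of these, 33 had a value on some array and 32 in both replicates. In the limma fit over all genes 0 of 32 passed in either direction (smallest adjusted p of 0.925). At an unadjusted p under 0.05 in that fit, 1 of 32, MHT1, was higher, against 1.39% of all genes. None of the 32 was lower at that p, against 3.44% of all genes. In replicate 1 their median was −0.17, and it was 0.02 on the array marked replicate 2. On both arrays of replicate 1, 2 of 28 were at least 2-fold lower in the mutant (STR3 and SAM3), against 2.62% of genes, and 0 of 28 at least 2-fold higher, against 1.23%. Below 0 on both arrays were 12 of 28, against 28.4% of all genes, and above 0 on both were 7 of 28, against 27.8%. The 12 include SOA1 and MET30 on chromosome IX, whose medians on these arrays were −0.80 and −0.62. The part of that shift in the count was not tested.

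Among the enzymes next to MET13 and MET6, the genes of the folate supply had ratios on either side of 0. MET12, a second methylenetetrahydrofolate reductase, was at −0.32, 0.67 and 0.47 (replicate 1 with the mutant in Cy5, its dye swap, and the array marked replicate 2). MET13 minus MET12 was thus −2.39, −4.03 and −0.49. SHM2, the cytosolic serine hydroxymethyltransferase that charges folate with one-carbon units, was at 0.19, 0.15 and 0.22, and MET7, which adds glutamate to folates, at 0.17, 0.41 and −0.14. No gene of this group had a value 2-fold from the median on any array.

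The methyl cycle and the recovery of methionine gave ratios on both sides. SAH1, which splits S-adenosylhomocysteine into homocysteine and adenosine, was at −1.17, −0.88 and 0.02. It was low on both arrays of replicate 1 and near the median on the third, as MET13 was. SAM3, the S-adenosylmethionine permease, was at −1.32, −1.22 and −0.07. MHT1, which makes methionine from S-methylmethionine, was at 1.20, 0.73 and 0.36, with a mean of 0.66 ± 0.43 (SD, n = 2), and MMP1, the S-methylmethionine permease, at 0.62, 0.16 and 0.67. MHT1 and MMP1, which are neighbours on chromosome XII, were above 0 on all 3 arrays together with HOM6 and SHM2, 4 of 28 genes against 14.5% of all genes. SAM4, the relative of MHT1, was at 0.10, −0.64 and 0.15. SAM3 and MMP1 are relatives as well, and probes of such pairs may bind transcripts of both. MUP1, the high-affinity methionine permease, was at −0.81, −0.44 and 0.16, and MUP3, a low-affinity one, at 0.30, 0.03 and −0.21.

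**Figure D4:**
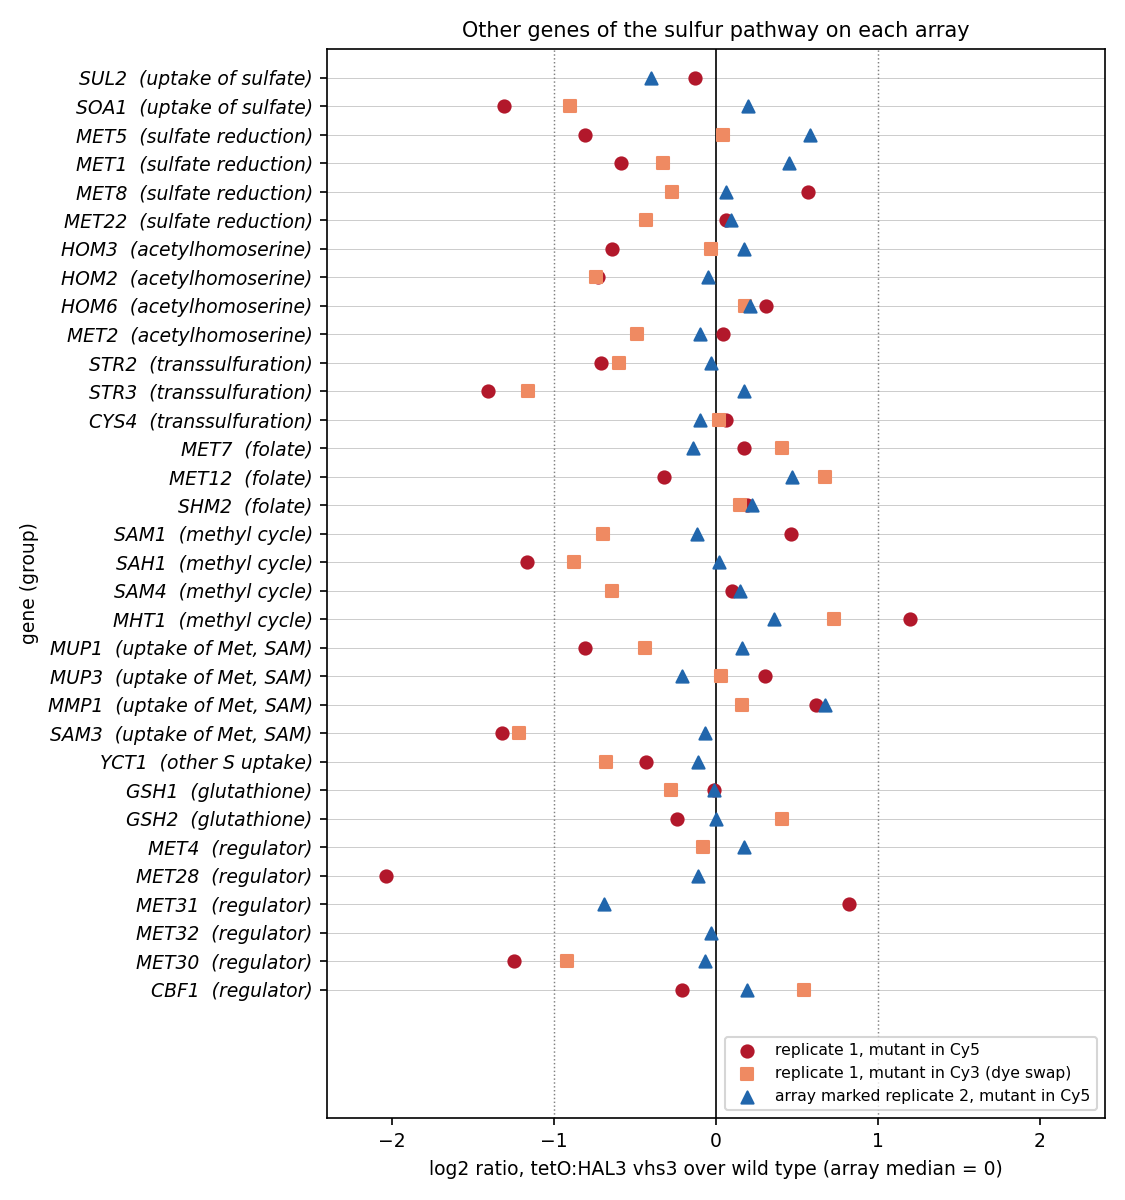
Log2 ratio of mutant over wild type for the 33 other sulfur genes with any value, grouped by role, with 1 point per array (circles and squares for the dye-swap pair of replicate 1, triangles for the array marked replicate 2) and dotted lines at a 2-fold difference. STR3 and SAM3 lie left of the lower line on both arrays of replicate 1, and no triangle reaches either line.

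In sulfate reduction, MET5, the other sulfite reductase subunit, was at −0.81, 0.04 and 0.58. MET1 and MET8, which make the siroheme of sulfite reductase, were at −0.59, −0.33 and 0.45, and at 0.57, −0.27 and 0.06. MET22, the phosphatase that removes the nucleotide left over from sulfate reduction, was at 0.06, −0.43 and 0.09. The 4 genes thus had at least 1 value on each side of 0 each, as MET3 did. Of the sulfate permeases SUL1 was blank on every array and SUL2 was at −0.13 and −0.40, with the dye swap blank.

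The branch that supplies O-acetylhomoserine had HOM2, aspartate semialdehyde dehydrogenase, lowest in replicate 1, at −0.73, −0.74 and −0.05. HOM3, aspartate kinase, was at −0.64, −0.03 and 0.17, and HOM6, homoserine dehydrogenase, at 0.31, 0.18 and 0.21. MET2, which makes the acetylated acceptor that MET17 uses, was at 0.04, −0.49 and −0.10. In transsulfuration STR3, cystathionine beta-lyase, was at −1.41, −1.16 and 0.17, and STR2, cystathionine gamma-synthase, at −0.71, −0.60 and −0.03. These enzymes run from cysteine to homocysteine. CYS4, cystathionine beta-synthase, which runs the other way with CYS3, was at 0.06, 0.02 and −0.10. IRC7 minus STR3 was 3.42 with the mutant in Cy5, 3.80 on the dye swap and −0.23 on the array marked replicate 2. The glutathione genes GSH1 and GSH2 were at −0.01, −0.28 and −0.01, and at −0.24, 0.41 and 0.00.

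The regulators were measured incompletely. MET4 was at −0.08 on the dye swap and 0.17 on the array marked replicate 2, and CBF1 at −0.21, 0.54 and 0.19. MET28, a cofactor of Met4, was at −2.04 with the mutant in Cy5 and −0.11 on the array marked replicate 2, with the dye swap blank. MET30 was at −1.25, −0.92 and −0.07. MET28, MET30 and SOA1, a transporter of inorganic and organic sulfur compounds at −1.31, −0.90 and 0.20, lie on chromosome IX, whose medians on the arrays of replicate 1 were −0.80 and −0.62. The part of that chromosome's shift in these 3 ratios was not tested. MET31 was at 0.82 with the mutant in Cy5 and −0.69 on the array marked replicate 2, and MET32 had a single value of −0.03. YCT1, a cysteine transporter, was at −0.43, −0.68 and −0.11, and JLP1 and BDS1, which release sulfur from sulfonates and sulfate esters, were blank.

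Arginine and lysine synthesis, listed with earlier results of these data known, had every gene on 1 side of 0 on the dye-swap pair. Further amino acid pathways were not listed, so how the sulfur genes compare with those was not examined. All 9 genes of arginine synthesis and all 8 of lysine synthesis were below 0 on both arrays of replicate 1, against 4 of 9 sulfur genes and 28.4% of all genes. The medians in replicate 1 were −1.66 for arginine and −1.05 for lysine synthesis, against −0.19 for the 10 sulfur genes and 0.02 for all genes. LYS12 and LYS1, the lysine genes with the lowest ratios in replicate 1 at −2.06 and −2.89, lie on chromosome IX. Without them, a choice made after seeing the data, the lysine median in replicate 1 was −1.04. On the array marked replicate 2 the median of arginine synthesis was 0.13, that of lysine synthesis 0.04 and that of the sulfur genes −0.02. With 2 replicates an exact sign-flip test cannot give a two-sided p below 0.5, and the difference between these lists was not tested.

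The mean profile of the 7 fully measured genes was −0.43, −0.56 and 0.10, between MET13 at one end and IRC7 at the other. The 5 genes nearest to it by Euclidean distance over the 3 arrays, out of 4251, were MTW1, YCLX05C, PAN6, ALD5 and PUT7, at distances of 0.0347 to 0.0983. Each of the 7 sulfur genes lay farther from their own mean than that, MET3 nearest at 0.55 and IRC7 farthest at 4.04, so the mean profile described none of them closely.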

How the data were processed

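The authors deposited log2 ratios, 1 for each gene and array. How the slides were scanned, corrected for background, filtered and normalized is not described in these sources. RNA (8 µg) was turned into cDNA with oligo(dT) and labelled indirectly, per the labels' protocols. The dye swap had a positive correlation with its partner (r = 0.508 over 4546 genes), so it had been turned already. Between replicates r was 0.159 and 0.143 (Spearman 0.128 and 0.0171) for the array marked replicate 2 against the replicate 1 array with the mutant in Cy5 and its dye swap. Intensities were not analysed here, so distance from background is unknown, and blank cells were dropped. Each array was centred on its median, and the dye-swap pair was averaged into 1 replicate. Replicates are called biological in the labels with no word on cultures, so p-values measure the spread between these samples.

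The mean ratio was compared with 0 by limma (version 3.58.1, R version 4.3.3) using lmFit and eBayes (n = 2, 1 residual and 5.15 prior degrees of freedom, two-sided, Benjamini-Hochberg at 0.05) over the 4598 genes with both replicates. The procedure was tested on simulated data. Names and chromosomes came from RefSeq R64, which matched 5638 of 6212 identifiers by locus tag. The members and lists were chosen with earlier results of these data known. Named were the 10 members, every measured gene of the list of 36, HAL3, VHS3 and URA3, and the 5 nearest profiles. Neighbouring genes were added after values were seen. The planned promoter motif comparison was not run, as no promoter sequences were used here.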

Additional observations from a re-analysis of the deposited data

How the results depend on the processing

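The median over the 7 measured sulfur genes was 0.06. It stayed between −0.05 and 0.10 with Cy5 arrays only, 3 arrays as if independent, ratios as deposited and arrays scaled to the same spread. Keeping only genes on all 3 arrays could not change it, since all 7 were measured on all 3. The median was −0.12 with the dye as a coefficient. That fit also took the 3 arrays as separate values and so gave replicate 1 more weight. Without each replicate in turn it ran from −0.23 to −0.02. The single-gene means changed sign in 9 of 56 cases, which include the setting with genes on all 3 arrays, where none could change. Without replicate 1, MET13 was at −0.02, MET6 at 0.33 and IRC7 at −0.06, so the size of all 3, and the sign of MET6 and IRC7, rest on replicate 1. SAM2 ran from −0.92 to −0.20 in the 8 alternatives. Its sign could not change in them, since its ratio was below 0 on every array. Over all genes, 0 passed the adjusted p in limma as reported, with 222 at an unadjusted p under 0.05. Fitting the arrays as if independent gave 17, which counts the dye-swap pair as 2 replicates. Scaling the arrays gave 4, PHO11, PHO5 and PHO12 higher and INO1 lower in the mutant, named after their values were seen. None of the 7 sulfur genes passed in any of the 6 refits, nor did any of the 28 to 32 others that each refit tested. At an unadjusted p under 0.05 in limma, the fit as if independent had 4 of the 7, beside 486 of 4598 genes. The fit with the dye as a coefficient had 3 of the 7, beside 559 of 4258 genes. Each other refit had 0 of the 7. The tests without 1 replicate could not be run, as no residual degrees of freedom remain, and both motif alternatives were not run. No paired analysis was possible because the ratios form 1 group. The number of arrays, and unknown signal over background, limit every ratio.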
